A study of Mus musculus with 11 samples.

Results

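The 9 genes described here mark GABAergic neurons of the brain and the main classes of cortical interneuron. They are Gad1, Gad2, Slc32a1, Pvalb, Sst, Vip, Npy, Lhx6 and Calb2, and they were taken as a named list of markers, with earlier results of these data known. All 9 were among the 36666 genes of the count table, and all 9 were among the 17983 genes that passed a filter on low counts and were tested. RNA-Seq had been performed on poly(A)+ RNA of one frozen cerebral hemisphere, with the cerebellum removed, from each of 11 male C57/Bl6 mice aged 1 year. The 7 Polg mutator mice were homozygous for the D257A knock-in allele (D257A/D257A), which impairs the proofreading of the mitochondrial DNA polymerase in every cell that carries it. The 4 controls were littermates that carried no mutant allele (WT/WT, mice 205, 239 and 246) or 1 mutant allele (WT/D257A, mouse 237). No mouse had been treated, and the labels of the mice give no batch.

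Inhibitory neurons make GABA from glutamate with the glutamate decarboxylases GAD67 (Gad1) and GAD65 (Gad2), and load it into vesicles with the transporter VGAT (Slc32a1). Most cortical interneurons fall into classes that are told apart by parvalbumin, somatostatin or vasoactive intestinal peptide, and those from the medial ganglionic eminence keep the transcription factor Lhx6. Neuropeptide Y and calretinin (Calb2) mark subsets that cut across these classes. The markers are not exclusive to interneurons, since striatal projection neurons also use the GABA genes, and calretinin is made by neurons of the thalamus and by granule and periglomerular cells of the olfactory bulb. In RNA from whole tissue, fewer cells of a type and less RNA per cell cannot be told apart.

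Library totals ranged from 28249345 to 121182250 gene counts in the controls and from 37821243 to 91219204 in the mutators. The counts of the members ranged from 509 (Lhx6) to 58727 (Gad1) in a single mouse, and no member was at 0 in any mouse. Mutator mouse 248 stood apart in the deposited read totals, with 3.00 gene counts per aligned read against 0.744 to 0.775 in the 10 others. Control mouse 237 stood apart in the balance of GC-rich and GC-poor genes, as described beside Sst. In edgeR's quasi-likelihood test, 223 genes passed an adjusted p of 0.05, which was 1.24% of the genes tested, and 144 of them were lower in the mutators. Every p-value rests on the spread between single mice.

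The promoters of the 3 neuropeptide members are shown because Sst and Npy varied together over the mice, whereas Vip did not. Each window is the 100 bases before the transcription start in the RefSeq table of build GRCm38.p6, read 5′ to 3′ on the strand of the gene. The windows are chr16:23890845-23890944 on the minus strand (Sst), chr10:5639118-5639217 on the plus strand (Vip) and chr6:49822610-49822709 on the plus strand (Npy). Capitals mark the cAMP response element TGACGTCA or, where that was missing, its shorter core TGACGT.
Sst: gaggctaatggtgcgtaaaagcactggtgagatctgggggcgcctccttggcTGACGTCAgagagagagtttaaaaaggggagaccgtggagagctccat
Vip: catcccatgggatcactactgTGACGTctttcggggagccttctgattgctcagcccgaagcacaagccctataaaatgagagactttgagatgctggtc
Npy: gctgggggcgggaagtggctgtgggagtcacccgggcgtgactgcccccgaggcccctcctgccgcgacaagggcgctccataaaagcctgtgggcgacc
The Sst window held TGACGTCA, beginning 48 bases before the start. The Vip window held TGACGT, beginning 79 bases before the start, and the Npy window held neither. On both strands, TGACGTCA was found in 379 of 32851 promoters (1.15%) and TGACGT, which includes the longer motif, in 1343 (4.09%). The windows of Gad1, Gad2, Slc32a1, Pvalb and Lhx6 held neither, and Calb2 was not matched in that table. These letters are a description of the windows and say nothing about binding.

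Levels are given as CPM, the counts scaled to a common library size with TMM factors. None of the 9 members passed an adjusted p of 0.05 between mutator and control mice in edgeR's quasi-likelihood test. Of all genes tested, 1.24% did. At an unadjusted p of 0.05, 4 of 9 passed, against 15.8% of all genes tested, with Gad2 and Calb2 higher and Sst and Npy lower in the mutators. In no member were the 2 groups of mice apart without overlap, whereas 2.62% of all genes tested were. The median log2 fold change was -0.0017 over the members and 0.0014 over all genes tested. Of the alternatives run, DESeq2 alone called a member, namely Npy (adjusted p = 0.0293). DESeq2 called 3.54% of all genes to which it gave an adjusted p. The plot of CPM by mouse shows each member's values.

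**Figure D1:**
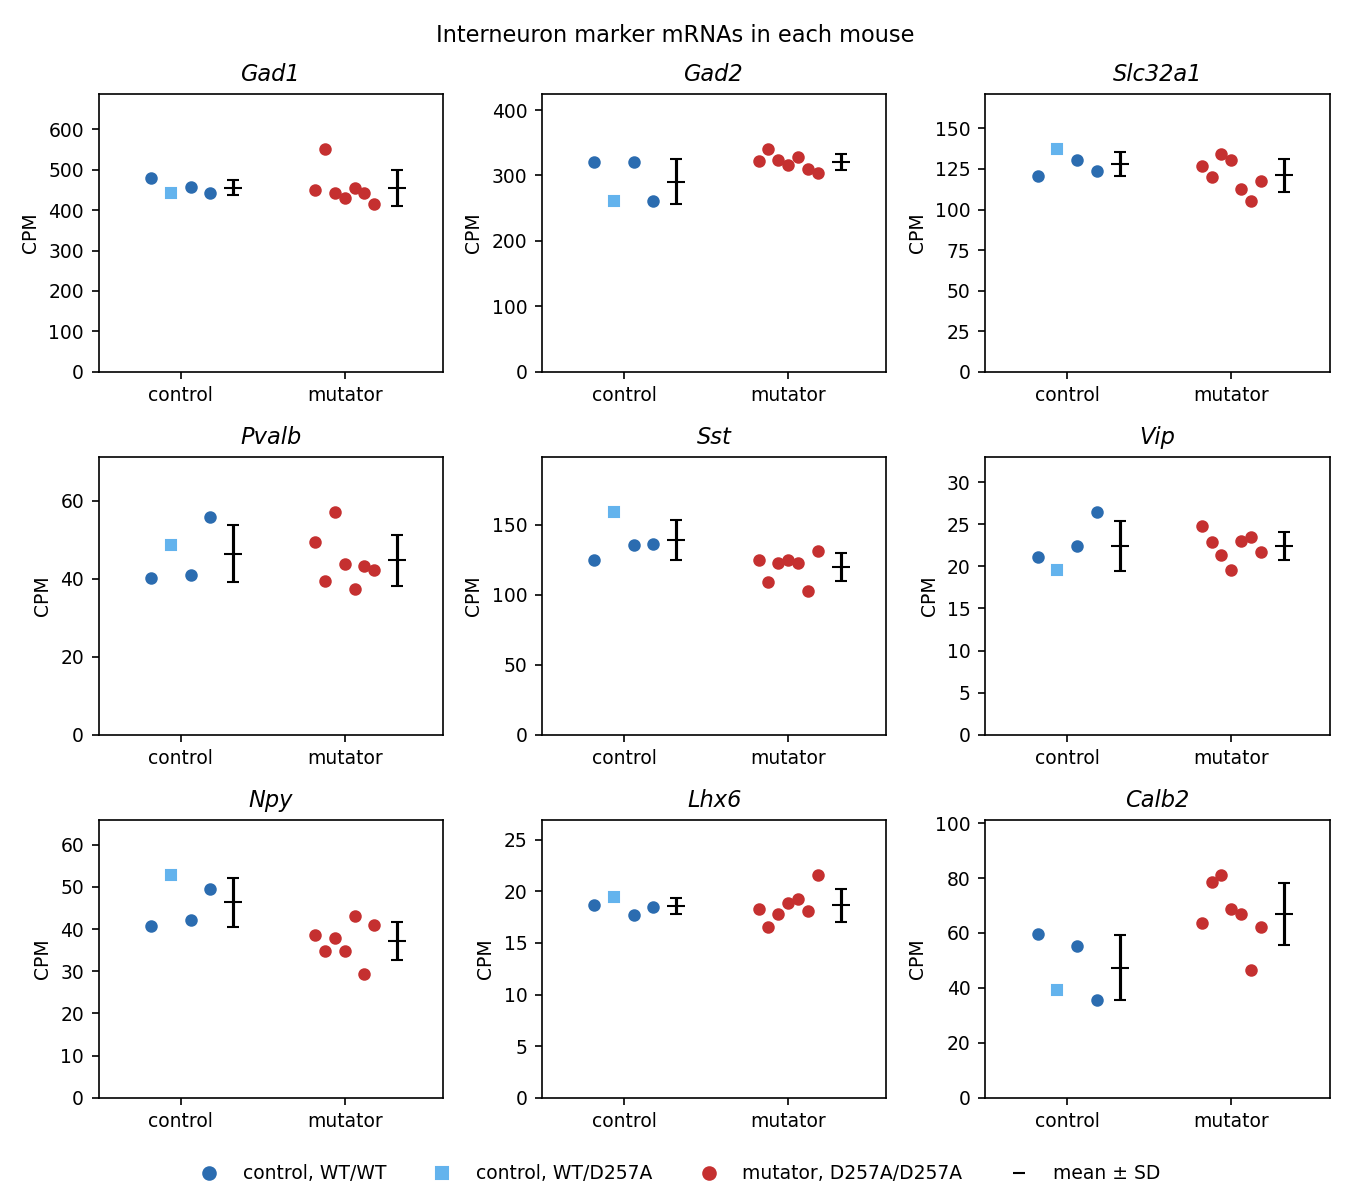
CPM (linear axes from 0) of the 9 members in each of the 4 control and 7 mutator mice, with the WT/D257A mouse as a square and the mean ± SD of each group beside the points. The groups overlap in every panel, and Calb2 is the member in which 6 of 7 mutators lie above the highest control.

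Compared between genes per kilobase of annotated exon, Sst had the highest level, with 211.6 ± 24.6 CPM per kilobase (SD, n = 11 mice). Npy followed with 71.4 ± 11.7, Gad1 with 59.6 ± 4.7, Gad2 with 52.7 ± 4.4, Slc32a1 with 44.0 ± 3.4, Pvalb with 43.6 ± 6.3 and Calb2 with 34.3 ± 8.5 CPM per kilobase. Vip had 14.7 ± 1.4 and Lhx6 had 3.93 ± 0.27 CPM per kilobase. The ranges over mice of Sst, Vip and Lhx6 met those of no neighbour in this order, whereas each neighbouring pair from Npy to Calb2 overlapped. When the longest transcript was used as the length, Gad1 moved ahead of Npy with 135.8 ± 10.6 CPM per kilobase, and Pvalb moved ahead of Slc32a1. Gad1 has many annotated exons, and its place in the order thus depends on the length used.

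Of the genes that make and load GABA, Gad2 had a higher mean in the mutators, and the intervals of the differences in Gad1 and Slc32a1 included 0. Gad1 (mm9 chr2:70391129-70440071, plus strand) had 480.6, 442.3, 458.3 and 442.5 CPM in control mice 205, 237, 239 and 246. It had 450.4, 551.3, 441.5, 430.4, 455.4, 443.8 and 415.4 CPM in mutator mice 207, 211, 217, 236, 240, 248 and 249. Mutator mouse 211 was the highest of all 11, 3 mutators lay below every control, and the other 3 lay within the range of the controls. The group means were 455.9 ± 18.1 CPM (SD, n = 4) and 455.4 ± 44.3 CPM (SD, n = 7), and the log2 fold change was -0.0017 ± 0.060 (SE, edgeR adjusted p = 0.994). The 95% interval of the difference ran from -0.13 to 0.12 on the log2 scale. Without mouse 211 the log2 fold change was -0.053.

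Mouse 211 also had the highest summed level of 8 olfactory bulb genes, 118.7 CPM against 38.0 to 68.8 CPM in the 10 other mice. The olfactory bulb gene Cdhr1, a cadherin of mitral and tufted cells, had 45.9 CPM in mouse 211 and 6.58 to 17.7 CPM in the others. Eomes, a transcription factor of the same cells, had 7.91 CPM in that mouse, and Tbx21 did not pass the filter on low counts. Control mouse 205, with the next highest olfactory bulb sum of 68.8 CPM, had the next highest Gad1 level, as the plot of members beside other measures shows. Among the other mice the order differed. Control mouse 239 had 47.2 CPM of bulb genes and 458.3 CPM of Gad1, whereas mutator mouse 217 had 56.8 and 441.5 CPM. The part of the bulb genes in the Gad1 level of these mice was not tested.

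Gad2 (mm9 chr2:22477725-22549394, plus strand) had 320.2, 260.7, 320.0 and 260.7 CPM in control mice 205, 237, 239 and 246. In mutator mice 207, 211, 217, 236, 240, 248 and 249 it had 321.6, 340.3, 323.7, 315.5, 329.0, 310.0 and 304.3 CPM. The controls thus fell into a pair near 320 CPM, inside the range of the mutators, and a pair below every mutator. The means were 290.4 ± 34.3 CPM (SD, n = 4) and 320.6 ± 12.1 CPM (SD, n = 7), a 1.10-fold difference with a 95% interval of 1.01 to 1.20 (edgeR adjusted p = 0.230). Without the WT/D257A mouse 237 the log2 fold change was 0.094 in place of 0.14 (edgeR adjusted p = 0.643), and with offsets for GC content and transcript length, described beside Sst, it was 0.087 (edgeR adjusted p = 0.438).

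Slc32a1 (mm9 chr2:158436494-158441484, plus strand) had 120.6 to 137.2 CPM in the controls and 105.2 to 134.4 CPM in the mutators, with medians of 127.2 and 120.2 CPM. The log2 fold change was -0.081 ± 0.059 (SE, edgeR adjusted p = 0.538), with an interval from -0.20 to 0.042. The gene Gm14205 is annotated on the other strand within this region, and reads of the unstranded libraries cannot be told apart between them.

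Among the markers of the interneuron classes, the peptides somatostatin and neuropeptide Y had the lowest p-values. Sst (mm9 chr16:23889667-23890930, minus strand) encodes a peptide that inhibits release of transmitters and hormones, and marks interneurons that target dendrites. It had 125.1, 159.2, 135.7 and 136.4 CPM in control mice 205, 237, 239 and 246. It had 124.7, 109.1, 122.5, 125.0, 122.5, 102.7 and 131.4 CPM in mutator mice 207, 211, 217, 236, 240, 248 and 249. The 6 lower mutators lay below every control, while mouse 249 lay between control mice 205 and 239. The means were 139.1 ± 14.3 CPM (SD, n = 4) and 119.7 ± 10.0 CPM (SD, n = 7). The fold of mutator over control was 0.861, with a 95% interval of 0.781 to 0.949 (edgeR adjusted p = 0.117). Without control mouse 237 the log2 fold change was -0.14 in place of -0.22 (edgeR adjusted p = 0.474).

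The level of Sst is set beside the balance of GC-rich and GC-poor genes in each library. Over 15556 genes with a known transcript, the median log2 fold change was 0.062 in the tertile with the lowest GC content, at most 47.4%, and -0.068 in the tertile with the highest, at least 53.7%. For each mouse, the median deviation of the GC-rich tertile from the mean of all mice was set against that of the GC-poor tertile. The difference was 0.24 on the log2 scale in control mouse 237, which had the highest Sst level, and -0.20 in mutator mouse 248 and -0.14 in mutator mouse 211, which had the lowest. The Sst transcript has 56.9% GC. Slc32a1 (61.9%), Lhx6 (56.2%) and Npy (53.7%) were also in the GC-rich tertile, with log2 fold changes of -0.081, 0.0018 and -0.32. With offsets for GC content and transcript length, the log2 fold change of Sst was -0.12 (edgeR adjusted p = 0.2995).

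Npy (mm9 chr6:49772709-49779506, plus strand) encodes neuropeptide Y, which many somatostatin and neurogliaform interneurons make. It had 40.7, 52.8, 42.2 and 49.5 CPM in control mice 205, 237, 239 and 246. It had 38.6, 34.8, 37.8, 34.8, 43.1, 29.4 and 40.9 CPM in mutator mice 207, 211, 217, 236, 240, 248 and 249. Of the mutators, 5 lay below every control and mice 240 and 249 lay within the control range. The means were 46.3 ± 5.8 CPM (SD, n = 4) and 37.1 ± 4.5 CPM (SD, n = 7). The fold was 0.802, with a 95% interval of 0.698 to 0.921 (edgeR adjusted p = 0.108). With the GC and length offsets the log2 fold change was -0.26 in place of -0.32 (edgeR adjusted p = 0.179), and with the 3 WT/WT controls alone it was -0.25 (edgeR adjusted p = 0.410).

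Pvalb (mm9 chr15:78021544-78036830, minus strand) encodes the calcium buffer of fast-spiking basket and chandelier cells. It had 40.2, 48.7, 41.0 and 55.8 CPM in control mice 205, 237, 239 and 246, and 49.4, 39.5, 57.1, 43.8, 37.4, 43.4 and 42.3 CPM in mutator mice 207, 211, 217, 236, 240, 248 and 249. Both groups spread widely, with control mouse 246 and mutator mouse 217 above 55 CPM. The means were 46.4 ± 7.3 CPM (SD, n = 4) and 44.7 ± 6.6 CPM (SD, n = 7), with an interval of the log2 difference from -0.31 to 0.21 (edgeR adjusted p = 0.890).

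Vip (mm9 chr10:4698927-4707323, minus strand) encodes the peptide of interneurons that mainly inhibit other interneurons. In build GRCm38.p6, used for the promoter windows, the gene is given on the plus strand. Its levels were 19.5 to 26.5 CPM in the controls, with a median of 21.8 CPM, and 19.6 to 24.8 CPM in the mutators, with a median of 22.9 CPM. All 7 mutators lay inside the control range. The means were 22.4 ± 3.0 CPM (SD, n = 4) and 22.4 ± 1.7 CPM (SD, n = 7), and the interval of the log2 difference ran from -0.14 to 0.17 (edgeR adjusted p = 0.962).

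Lhx6 (mm9 chr2:35937470-35960928, minus strand) is the transcription factor shared by parvalbumin and somatostatin cells. It had 17.7 to 19.5 CPM in the controls and 16.5 to 21.6 CPM in the mutators, with medians of 18.6 and 18.3 CPM. The means were 18.6 ± 0.75 CPM (SD, n = 4) and 18.6 ± 1.6 CPM (SD, n = 7), with a log2 fold change of 0.0018 ± 0.066 (SE, edgeR adjusted p = 0.994). The 95% interval, from -0.14 to 0.14, bounds the difference of this gene to between 0.911-fold and 1.10-fold.

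Calb2 (mm9 chr8:112661402-112692110, minus strand), which encodes the calcium buffer calretinin, had the widest difference between the groups. It had 59.7, 39.1, 55.2 and 35.4 CPM in control mice 205, 237, 239 and 246. It had 63.8, 78.7, 81.1, 68.9, 67.0, 46.6 and 62.3 CPM in mutator mice 207, 211, 217, 236, 240, 248 and 249. Only mutator mouse 248 lay within the range of the controls, and the other 6 lay above it. The means were 47.4 ± 11.9 CPM (SD, n = 4) and 66.9 ± 11.4 CPM (SD, n = 7), a 1.40-fold difference with a 95% interval of 1.05 to 1.87. The difference did not pass the adjusted threshold (edgeR adjusted p = 0.245), and its standard error of 0.19 on the log2 scale was above the median of 0.078 over all genes tested.

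Thalamic and hypothalamic genes are set beside Calb2 because neurons of the thalamus make calretinin, and the list does not separate these regions. The summed level of 12 such genes was 414.4 to 475.0 CPM in the controls and 475.2 to 531.1 CPM in the mutators, and the 2 controls with the lowest sums, mice 246 and 237, had the lowest Calb2 levels. Among the mutators the order differed, since mouse 211 had the lowest sum and the second highest Calb2 level, and mouse 240 had the highest sum with 67.0 CPM of Calb2. Mouse 211 also had the highest olfactory bulb sum, 118.7 CPM, whereas mouse 217, with the highest Calb2 level, had 56.8 CPM of bulb genes. Of the 12 genes, 10 were higher in the mutators and 5 passed an unadjusted p of 0.05, all higher, against 15.8% of all genes tested, with a median log2 fold change of 0.26. Slc17a6, the vesicular glutamate transporter of subcortical neurons, averaged 101.0 ± 16.8 CPM in the controls and 122.8 ± 11.5 CPM in the mutators (edgeR adjusted p = 0.190). Rora, an orphan nuclear receptor, had 150.2 ± 4.4 and 153.0 ± 5.8 CPM. Pmch, the melanin-concentrating hormone of the lateral hypothalamus, had the lowest p of the list, at 0.47 on the log2 scale (edgeR adjusted p = 0.0799). No gene of the list was at 0 in any mouse, and the part of the diencephalic or olfactory bulb genes in the Calb2 level was not tested.

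**Figure D2:**
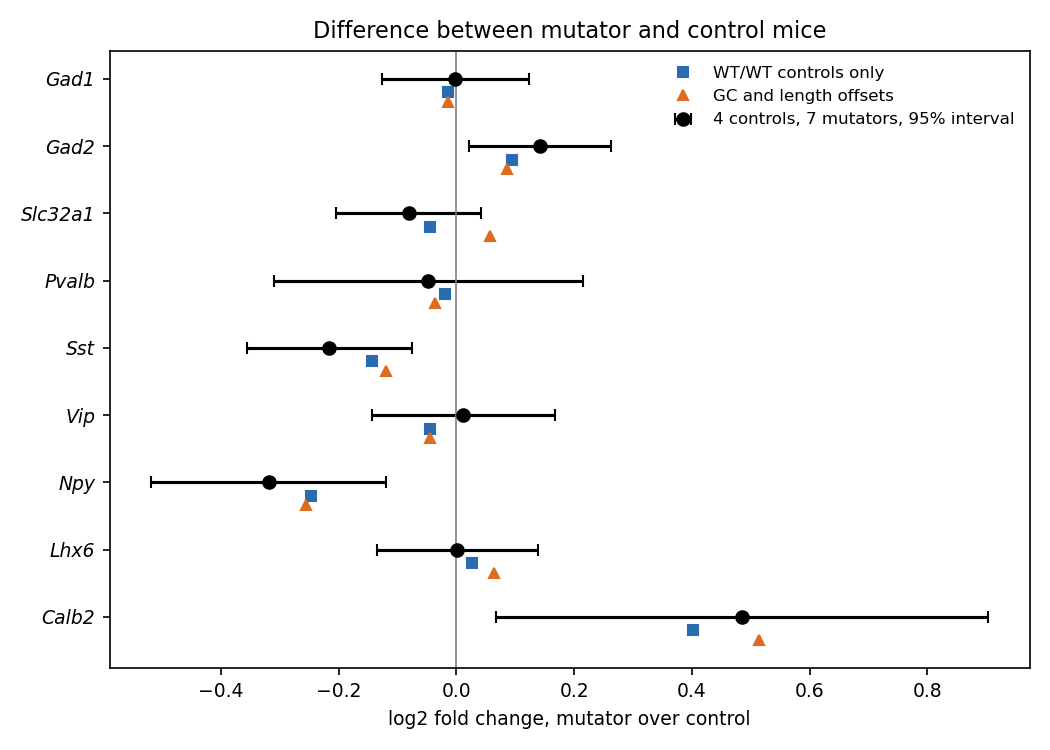
Log2 fold change of mutator over control for each member, with the edgeR estimate and its 95% interval from 4 controls and 7 mutators (circles), with the 3 WT/WT controls only (squares) and with GC and length offsets (triangles). The intervals of Gad2, Sst, Npy and Calb2 exclude 0 before adjustment, and Slc32a1 and Vip change sign with the offsets.

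**Figure D3:**
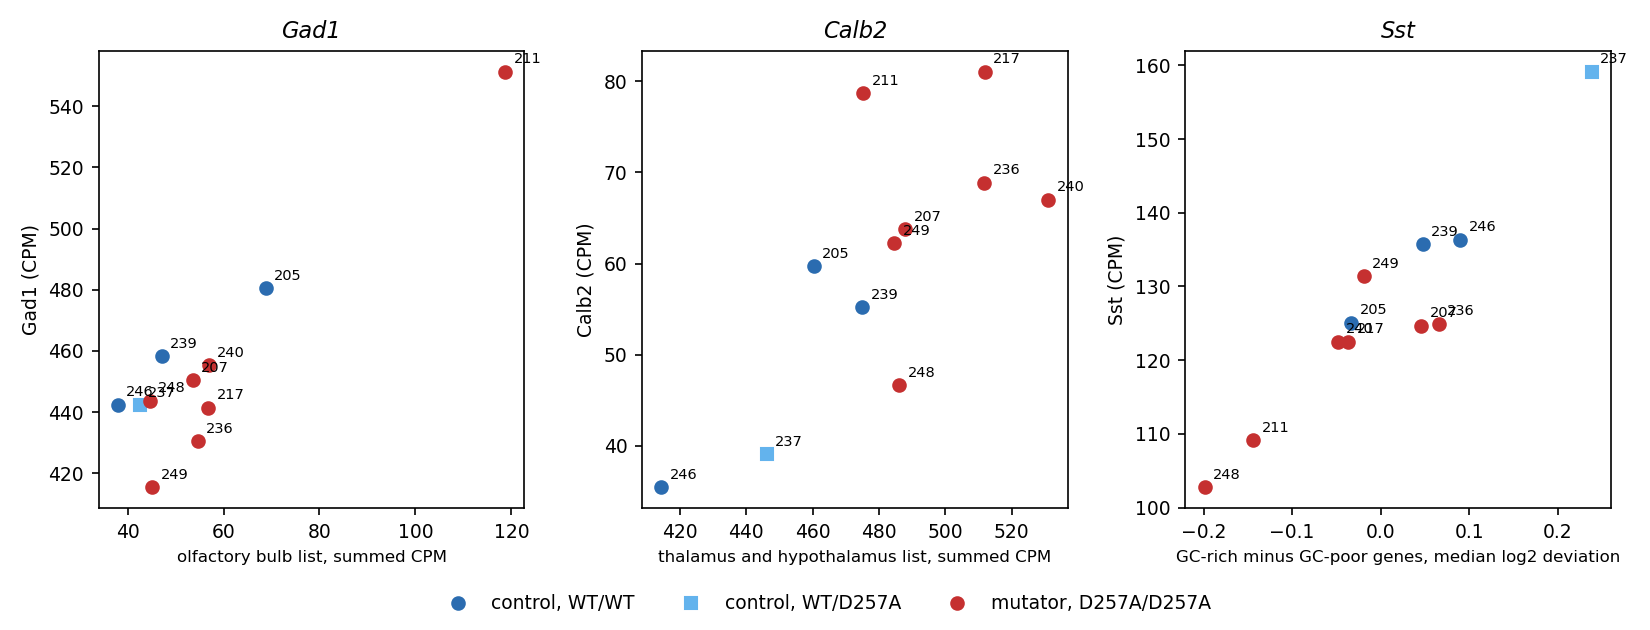
Level of a member in each mouse (CPM) against another measure of the same library, with Gad1 beside the summed CPM of the olfactory bulb genes, Calb2 beside that of the thalamic and hypothalamic genes, and Sst beside the log2 difference between GC-rich and GC-poor genes. Numbers name the mice, and mutator mouse 211 (118.7 CPM of bulb genes) and control mouse 237 (a GC difference of 0.24) lie apart.

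How the members varied with each other was asked over the 11 mice, with 36 pairs of members tested. In 14 pairs Pearson's r of the log2 CPM was positive and in 22 it was negative. After adjustment over the 36 pairs, 2 pairs passed 0.05 by Pearson's r and 0 by Spearman's rho, and 6 passed an unadjusted p of 0.05 by Pearson's r. Sst and Npy had r = 0.90 (permutation p = 0.00045, adjusted p = 0.0131) and rho = 0.75 (permutation p = 0.0108, adjusted p = 0.194). Without the 2 mice farthest from the median of Sst r was 0.72, and within the 7 mutators it was 0.81 (exact permutation p = 0.0266, adjusted p = 0.479). The other pair, Gad2 and Calb2, had r = 0.89 (permutation p = 0.00073, adjusted p = 0.0131) and rho = 0.79 (permutation p = 0.00501, adjusted p = 0.180). Control mice 237 and 246 were lowest in both genes and lay apart from the other 9 mice. Without these 2 mice r was 0.61, and within the 7 mutators it was 0.65 (exact permutation p = 0.108, adjusted p = 0.488). With deviations from group means r was 0.82 over the 11 mice. The value was thus lower, but still positive, without this pair of controls. Without control mouse 237 alone, 0 of the 36 pairs passed the adjusted threshold, without mutator mouse 211 or control mouse 246 1 pair did, and without mutator mouse 248 6 did.

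**Figure D4:**
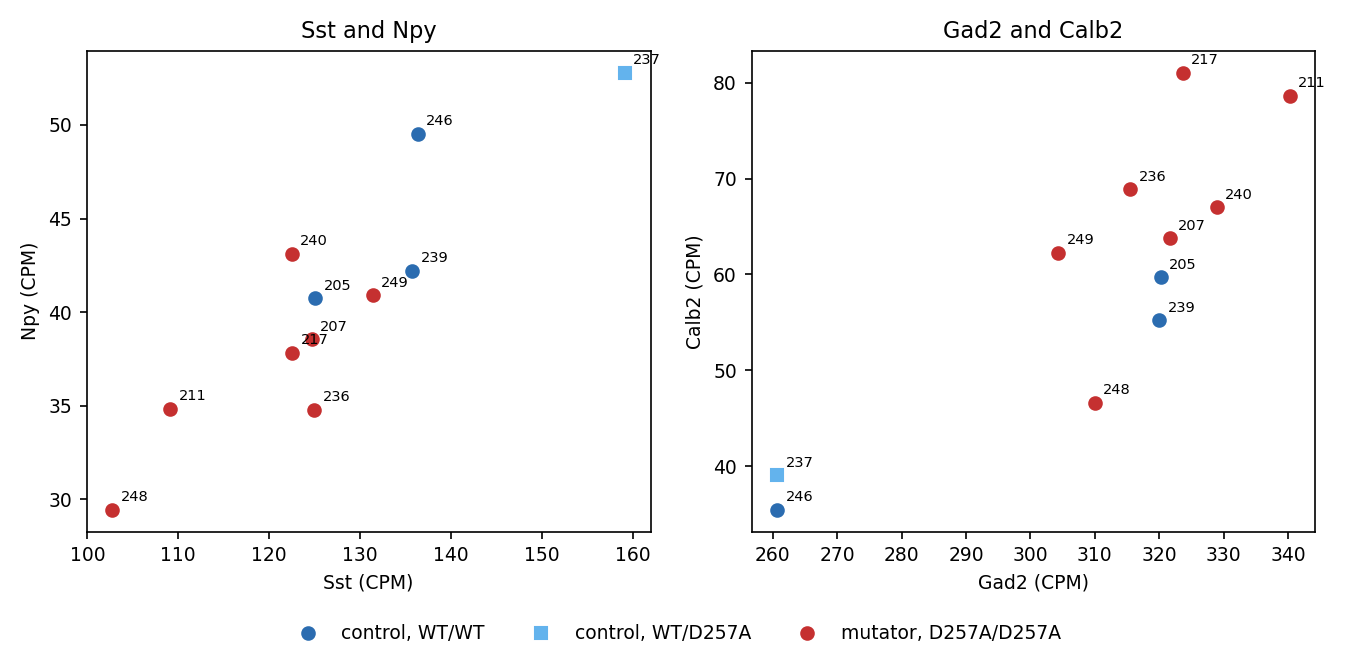
Levels in each of the 11 mice (CPM) of Sst against Npy on the left and of Gad2 against Calb2 on the right, with the mouse numbers beside the points. Control mouse 237 is highest in Sst and Npy, and control mice 237 and 246 are lowest in Gad2 and Calb2.

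The other pairs did not pass. The decarboxylases Gad1 and Gad2 had r = 0.44 over all mice (permutation p = 0.187, adjusted p = 0.511) and r = 0.86 within the 7 mutators (exact permutation p = 0.00417, adjusted p = 0.150). Gad1 and Lhx6 had r = -0.73 (permutation p = 0.0254, adjusted p = 0.152). The median r over the 36 pairs was -0.095.

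For each member, the genes with the most similar levels over the 11 mice were named from 11910 genes with a mean of at least 5 CPM, by Pearson's r of the log2 CPM and as a description. Gad1 was closest to Exosc8 (r = 0.95), to Cdhr1 (0.93) and to Dcx, the doublecortin of migrating neuroblasts (0.90). Gad2 was closest to Zc3h12c (0.96), Fam199x (0.95) and Ahi1 (0.94), and Calb2 to Fam196b (0.95), Klhl1 (0.95) and Ahi1 (0.93), so that Ahi1 was named for both. Sst was closest to Gnb2 (0.98), Samd1 (0.98) and Pld3 (0.97), and Npy to Pdzd4 (0.96), Necab3 (0.96) and Traf4 (0.96). Slc32a1 was closest to the complex I subunit Ndufs7 (0.95) and to Bckdha (0.94). Pvalb was closest to Wbscr16 (0.89), Gcat (0.88) and Sys1 (0.88), Lhx6 to Crcp (0.94), Frmd5 (0.92) and Olfml2b (0.91), and Vip to the pyruvate dehydrogenase subunit Pdha1 (0.90), Tmem18 (0.90) and Mdh1 (0.89). These genes were picked as the highest r of many, and all values of r come from the same 11 libraries, which differ in depth and in GC balance.

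The exons of the members were examined in 10 mice, 7 mutators and the 3 WT/WT controls, which are the groups of the study's own comparison of exons. Exon bins of mouse 237 were not analysed here. Each bin, a stretch of exon from the flattened annotation, was compared with the other bins of its gene. Of 110 bins of the members 93 were tested, 0 passed an adjusted p of 0.05 in edgeR's diffSpliceDGE, and 0 passed an unadjusted p of 0.05 in that test or in limma's diffSplice. Among all 206930 bins tested, 0.0237% passed the adjusted threshold and 1.90% the unadjusted one. The lowest p of a member was in bin 4 of Lhx6, with a relative usage of -0.39 on the log2 scale. In Sst, both bins differed from the gene by less than 0.01 on the log2 scale, and in Gad1 all 28 bins tested lay between -0.26 and 0.032.

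Other genes of the GABA cycle and of the interneuron classes were read from the same test. Of 12 genes for the synthesis, uptake and breakdown of GABA, 1 was called higher and 1 lower, against 1.24% of all genes tested. At an unadjusted p of 0.05, 3 passed higher and 1 lower, against 15.8% of all genes tested. Slc38a2, a transporter that brings glutamine into neurons, rose from 160.7 ± 7.2 CPM (SD, n = 4) to 202.4 ± 18.6 CPM (SD, n = 7), with a log2 fold change of 0.33 ± 0.060 (SE, edgeR adjusted p = 0.00822). It was called in 19 of 20 alternatives, and with the GC and length offsets its log2 fold change was 0.27 (edgeR adjusted p = 0.0772). Slc38a3, the astrocytic transporter that releases glutamine, fell from 76.8 ± 7.9 to 59.8 ± 5.2 CPM, with a log2 fold change of -0.36 ± 0.067 (SE, edgeR adjusted p = 0.00978). It was not called without control mouse 237, where the log2 fold change was -0.29 (edgeR adjusted p = 0.0777), or with the offsets, where it was -0.30 (edgeR adjusted p = 0.0529). The other 10 genes did not pass, among them the GABA transaminase Abat with a log2 fold change of 0.046.

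Of 16 transcription factors of interneuron lineages other than Lhx6, 0 were called, 12 were lower and 4 higher in the mutators, and the median log2 fold change was -0.033. That median ran from -0.094 without mutator mouse 211 to 0.0059 without control mouse 205 and was 0.0050 with the GC and length offsets, so that its sign was not stable. Npas1 had the lowest p of them (log2 fold change -0.17, edgeR adjusted p = 0.301). It was the only 1 of them under an unadjusted p of 0.05, against 15.8% of all genes tested. Of 10 genes high in parvalbumin cells 0 were called. At an unadjusted p of 0.05, 3 passed, all lower, against 15.8% of all genes tested. In this list 7 genes were lower and 3 higher, and the median was -0.11. Among them Kcnc2, a potassium channel of fast-spiking cells, had 171.0 ± 4.7 CPM in the controls and 157.8 ± 3.7 CPM in the mutators (edgeR adjusted p = 0.143). The groups did not overlap in Kcnc2, as in 2.62% of all genes tested. Of 10 genes high in somatostatin cells 0 were called. At an unadjusted p of 0.05, 1 passed higher and 2 lower, against 15.8% of all genes tested. The median was -0.015, between -0.053 without control mouse 237 and 0.012 without control mouse 205. Crhbp, the binding protein of corticotropin-releasing hormone, was at -0.20 (edgeR adjusted p = 0.143). Of 10 receptors listed for the members' peptides 0 were called, with Sstr3 at -0.26 (edgeR adjusted p = 0.0558). At an unadjusted p of 0.05, 2 of the 10 passed, both lower, against 15.8% of all genes tested.

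Of 14 genes high in VIP, cholecystokinin and neurogliaform cells 1 was called, against 1.24% of all genes tested. At an unadjusted p of 0.05, 2 passed higher and 3 lower, against 15.8% of all genes tested. Cck, the peptide cholecystokinin, which cortical projection neurons also make, fell from 135.7 ± 15.4 CPM (SD, n = 4) to 102.5 ± 8.5 CPM (SD, n = 7). It had 118.5, 135.8, 132.6 and 155.9 CPM in control mice 205, 237, 239 and 246 and 87.4 to 115.1 CPM in the mutators. The groups thus did not overlap, as in 2.62% of all genes tested. The log2 fold change was -0.40 ± 0.069 (SE, edgeR adjusted p = 0.00715), and without control mouse 237 it was -0.40 (edgeR adjusted p = 0.0522). Cck was called in 19 of 20 alternatives, and with the GC and length offsets its log2 fold change was -0.31 (edgeR adjusted p = 0.00801).

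**Figure D5:**
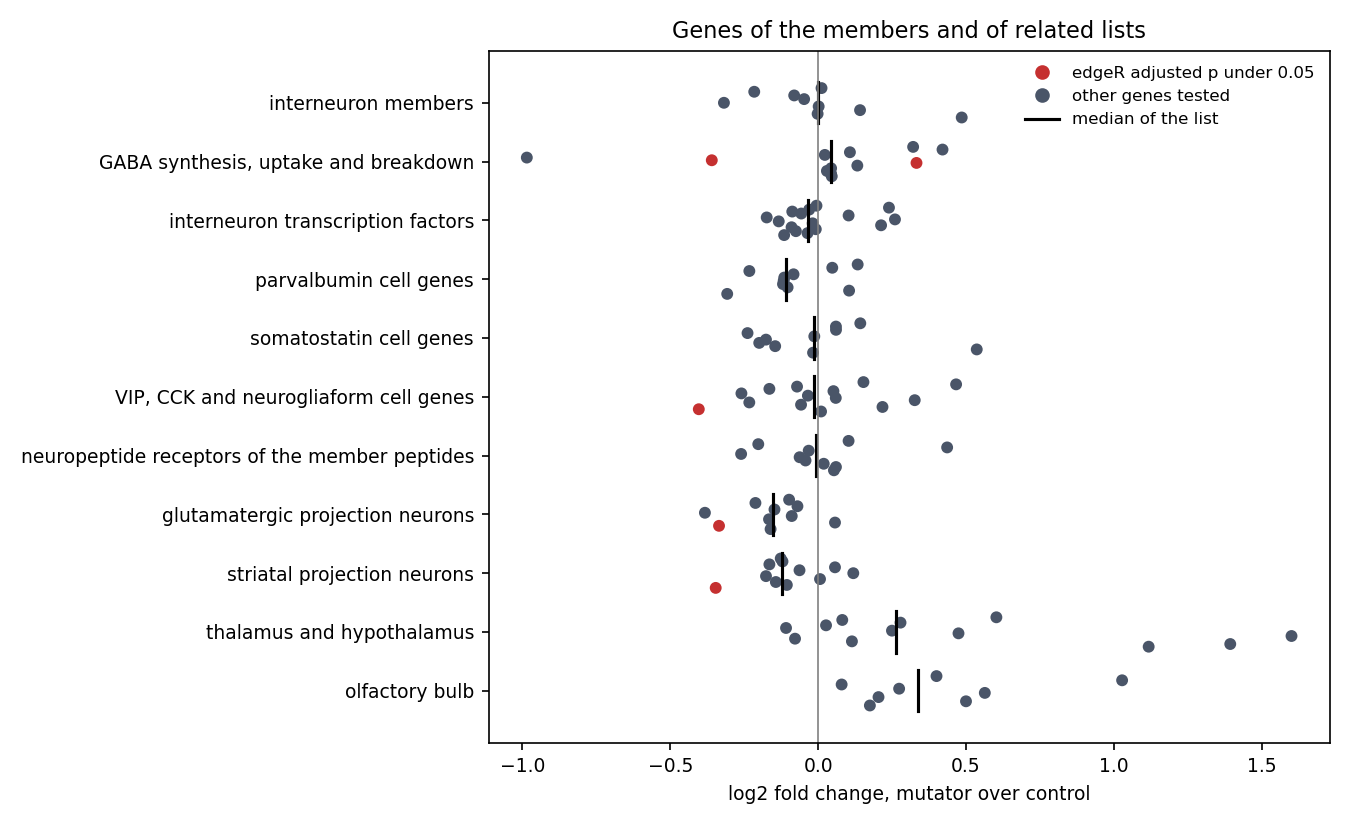
Log2 fold change of mutator over control for the genes tested of the members, of the lists on the GABA cycle and interneurons, and of lists for other neurons and regions, with the median of each list as a black bar. Red points passed an edgeR adjusted p of 0.05, and no member did.

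Other cells and regions of the hemisphere gave the following values beside the members. The summed level of 10 genes of glutamatergic projection neurons was 4068 to 5151 CPM in the controls and 3662 to 4382 CPM in the mutators, highest in control mouse 237. Of the 10 genes 9 were lower and 1 higher, and 5 passed an unadjusted p of 0.05, all lower, against 15.8% of all genes tested. Their median log2 fold change was -0.15, and Slc17a7 had 918.4 ± 90.6 CPM in the controls and 792.8 ± 61.6 CPM in the mutators (edgeR adjusted p = 0.0995). Camk2a had 2612 ± 298 and 2337 ± 137 CPM (edgeR adjusted p = 0.196). In this list Emx1, a transcription factor of cortical progenitors and projection neurons, fell by 0.34 on the log2 scale (edgeR adjusted p = 0.0451) and was called in 10 of 20 alternatives. Its log2 fold change was -0.16 with the GC and length offsets (edgeR adjusted p = 0.395) and -0.30 without control mouse 237 (edgeR adjusted p = 0.215).

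The sum of 11 genes of striatal projection neurons was 1089 to 1326 CPM in the controls and 962.7 to 1163 CPM in the mutators, with a median log2 fold change of -0.12 that was -0.050 without control mouse 237. At an unadjusted p of 0.05, 3 of them passed, all lower, against 15.8% of all genes tested. Adora2a, the adenosine receptor of indirect pathway neurons, fell by 0.35 on the log2 scale (edgeR adjusted p = 0.0376) and was called in 11 of 20 alternatives. Without control mouse 237 its log2 fold change was -0.23 (edgeR adjusted p = 0.190). Pde10a had 299.5 ± 25.4 and 286.8 ± 32.03 CPM and Ppp1r1b had 268.3 ± 39.3 and 246.7 ± 27.8 CPM in controls and mutators. The 8 olfactory bulb genes tested were all higher in the mutators, with a median of 0.34 that was 0.052 without mutator mouse 211 and 0.57 without control mouse 205. Pbx3 had 21.2 ± 3.5 and 22.6 ± 3.6 CPM in that list, and Ppp1r17 had its lowest p (edgeR adjusted p = 0.124).

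Of 7 cerebellar genes tested 6 were higher and 0 were called, with a median of 0.25 that was 0.11 without mutator mouse 217 and 0.12 without control mouse 246. Zic1 had 48.2 ± 10.7 and 57.7 ± 5.9 CPM and Zic2 had 14.6 ± 1.9 and 15.9 ± 1.2 CPM in controls and mutators. Gabra6, the receptor subunit of cerebellar granule cells, did not pass the filter on low counts, and Fat2 had the lowest p with 0.15 ± 0.10 and 0.93 ± 0.86 CPM (edgeR adjusted p = 0.156). Of 8 oligodendrocyte genes 5 were lower and 3 higher. An unadjusted p under 0.05 was found in 4, all lower, against 15.8% of all genes tested. Opalin alone was called, against 1.24% of all genes tested, at -0.81 on the log2 scale (edgeR adjusted p = 0.0385). It was called in 8 of 20 alternatives, and without control mouse 237 its log2 fold change was -0.79 (edgeR adjusted p = 0.169). All 8 microglial genes had lower estimates in the mutators, and the median log2 fold change was -0.13 (-0.080 without control mouse 237). Of these genes 4 had an unadjusted p under 0.05, against 15.8% of all genes tested. None of the genes listed for astrocytes, microglia, endothelium or choroid plexus was called, and the lowest p-values were those of Slc1a2, Cx3cr1, Flt1 and Clic6. The part of these cells and regions in the levels of the members was not tested.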

How the data were processed

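Poly(A)+ RNA of 11 cerebral hemispheres had been sequenced as 100-base paired reads from unstranded libraries. Alignment by the authors was to mm9 with TopHat2 2.0.6 and Bowtie2, and HTSeq assigned reads to Ensembl genes. They deposited these counts per gene and the counts per exon bin, neither normalized, with a table of read totals (alignment numbers, used to compare depth). The authors' DESeq and DEXSeq tables hold fold changes and p-values and were not used. Gene counts covered 11 mice and bin counts 10, and the number of sample columns left unused in these tables was 0.

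Groups followed the genotype labels. The members and lists were chosen with earlier results of these data known. Gene counts were tested in R 4.3.3 with edgeR 4.0.16 (filterByExpr, TMM, robust quasi-likelihood F test, Benjamini-Hochberg over all 17983 genes), and exon bins with diffSpliceDGE. Bin coefficients were divided by the natural log of 2. The study's DESeq and DEXSeq were replaced by these. CPM used TMM factors, and correlations used log2 CPM with a prior count of 2 and 100000 permutations. The smallest p these can give is 1e-05. Alternatives were DESeq2 1.42.0, other normalizations and filters, WT/WT controls alone, no mitochondrial genes, log2 total count, a surrogate variable (sva 3.50.0), limma 3.58.1, and each mouse left out. GC and length offsets were added after seeing the data. All tests were two-sided. The edgeR and DESeq2 gene tests, the exon bin tests and the correlation test were also run on simulated data. The gene fits with a covariate or offsets were not.

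Named were the 9 members, the 3 genes most similar to each, the called genes of each list or else the one with the lowest p, and for regional and projection neuron lists the 2 with the highest mean. Some genes that this rule names are not reported here. Abat, Eomes, Tbx21 and Gabra6 were named after their values were seen. Coordinates and lengths came from an mm9 annotation of a later Ensembl release than the one used for counting. Depth limits precision through counts, which were at least 509 per member and mouse.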

Additional observations from a re-analysis of the deposited data

Results flagged for a closer look

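In 18 groups of values (9 members in 4 controls and in 7 mutators), the highest and lowest mouse were compared with the others by Dixon's ratio, which chance alone exceeds in about 1 group of 20. Only Gad1 in the mutators was above the 95% critical value of 0.568. There the gap from mouse 211, with 551.3 CPM, to the next mutator was 0.706 of the range of the group. The same mouse had 118.7 CPM of olfactory bulb genes against 38.0 to 68.8 CPM in the others, and the part of these in its Gad1 level was not tested.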

How the results depend on the processing

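Among 20 distinct alternatives, Sst and Npy were lower in the mutators with an unadjusted p under 0.05 in 20 of 20, Calb2 was higher with such a p in 18 and Gad2 in 17. No member was called in 19 of them, and DESeq2, which called 3.54% of genes with an adjusted p, called 1 (Npy, log2 fold change -0.32). The genes called over all genes were 223, against 615 with DESeq2, 346 with no filter, 50 with the WT/WT controls only and 138 with GC and length offsets, and 50 (without control 237) to 412 (without control 205) with 1 mouse left out. Gad1 changed sign with upper-quartile normalization (0.0034), Vip with the WT/WT controls only (-0.045) and with the offsets (-0.044), and Slc32a1 with the offsets (0.057). With 1 mouse left out the log2 fold change ran from -0.053 to 0.023 in Gad1, from -0.045 to 0.094 in Vip, from -0.033 to 0.027 in Lhx6 and from -0.11 to 0.049 in Pvalb. Exon bins called were 49, against 25 with limma and 21 without merged groups, and 5 (without control 239) to 186 (without control 205) with 1 mouse left out, and those of the members stayed at 0. The pairs called were 2, against 1 with deviations from group means, and 0 to 6 with 1 mouse left out. The causes of these changes were not tested. The smallest library, 28249345 counts, is control 246, and counting error in it is largest for Lhx6 with 509 counts.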
